A study of Mus musculus with 6 samples.

Results

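Joins of the V gene Ighv1-26 made up 11632 of the 228609 deposited immunoglobulin heavy-chain (Igh) sequences. They were taken as the sequences whose V call names Ighv1-26 (IGHV1-26 in the deposited calls) first, with alleles merged. The gene was chosen by its total share, the highest of all V genes, so that share is given as a description with no test. Sequences came from VDJ-seq, which reads V(D)J joins from genomic DNA. The B cells came from spleens of 12 weeks old C57BL/6 mice and were enriched by magnetic depletion of unwanted cells. A set of 4 libraries started from 500 ng, 1 µg, 2.5 µg or 5 µg of DNA, and 2 libraries, Q5_vent and Q5_Q5, differed in the DNA polymerases used. Each group held 1 library, how much DNA the polymerase pair started from is not stated in the labels used here, and no p-value was computed between groups. No genetic change or treatment of the mice is named in the labels. The labels do not say whether the libraries came from separate mice, so the spread between these libraries may be technical. The limma p-values rest on that spread and on a variance moderated over all V genes tested, and for several measures almost wholly on the latter. They cannot be read as measuring a spread between mice.

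A developing B cell joins 1 of many V genes to a D and a J gene, after cutting at recombination signals beside each gene, and bases are trimmed and inserted at both junctions. The junction makes up most of the CDR3, the loop of the heavy chain that contributes most to antigen contact. Joins that shift the reading frame make no heavy chain and persist in cells whose other allele gave a working one. Their V gene shares are therefore commonly read as a record of recombination, whereas shares among productive joins also carry the selection of B cells by their receptor. Ighv1-26 belongs to Ighv1, the large J558 family of mouse V genes.

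In the RefSeq annotation of GRCm38.p6, Ighv1-26 is a V segment on chromosome 12, at 114788372 to 114788665, a length of 294 bases. Its sequence is shown with those of Ighv1-34 and Ighv1-31, the genes most often named in the same V call. Each was read from deposited alignments that covered the whole gene with no mismatch, 1960 for Ighv1-26, 90 for Ighv1-34 and 69 for Ighv1-31, and these gave 1 distinct sequence per gene. Alignments with no mismatch repeat the reference of the called allele, so these counts are no independent check of the sequence. Capitals in Ighv1-26 mark bases that differ in either relative, and capitals in the relatives mark their differences from Ighv1-26.
Ighv1-26: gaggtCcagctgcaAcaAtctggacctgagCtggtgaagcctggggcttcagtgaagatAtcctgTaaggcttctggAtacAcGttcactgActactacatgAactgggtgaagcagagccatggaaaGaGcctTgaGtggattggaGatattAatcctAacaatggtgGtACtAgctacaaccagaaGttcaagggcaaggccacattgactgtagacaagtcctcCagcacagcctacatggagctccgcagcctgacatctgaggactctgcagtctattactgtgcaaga
Ighv1-34: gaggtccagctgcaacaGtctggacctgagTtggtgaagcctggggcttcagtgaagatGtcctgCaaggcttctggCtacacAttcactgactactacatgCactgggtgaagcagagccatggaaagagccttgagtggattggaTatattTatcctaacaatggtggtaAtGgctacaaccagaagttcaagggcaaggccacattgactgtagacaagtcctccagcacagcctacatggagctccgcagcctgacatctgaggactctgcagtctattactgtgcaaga
Ighv1-31: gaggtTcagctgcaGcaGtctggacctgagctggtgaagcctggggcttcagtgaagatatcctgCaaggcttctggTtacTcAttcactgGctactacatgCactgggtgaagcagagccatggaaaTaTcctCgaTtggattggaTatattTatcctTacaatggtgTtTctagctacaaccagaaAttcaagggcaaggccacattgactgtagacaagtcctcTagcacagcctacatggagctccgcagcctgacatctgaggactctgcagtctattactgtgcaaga
Counted from 1 at the 5′ end of the V gene, Ighv1-34 differs from Ighv1-26 at 11 bases (96.3% identity), from A18G to A175G. Ighv1-31 differs at 20 bases (93.2% identity), from C6T to base 228. The 3 genes are identical downstream of base 228, including the 3′ end that enters the join.

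Ighv1-26 was the most used V gene in each of the 6 libraries. Its share of all sequences was 5.18%, 5.12%, 4.98% and 5.16% in the input series from the least to the most DNA, 4.81% in Q5_vent and 5.26% in Q5_Q5, a mean of 5.08% ± 0.164 (SD, n = 6 libraries). The 5 genes next in mean share were Ighv3-6 (3.01% ± 0.140), Ighv1-64 (2.88% ± 0.0623), Ighv1-18 (2.55% ± 0.0634), Ighv1-50 (2.55% ± 0.122) and Ighv8-8 (2.43% ± 0.103). The counts behind the Ighv1-26 shares ran from 451 sequences at 500 ng to 5792 at 5 µg, and library totals from 8704 to 112320. Wilson 95% intervals, which like those of share ratios and clones cover counting error only, were widest at 500 ng (4.74% to 5.67%) and narrowest at 5 µg (5.03% to 5.29%).

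The rank of Ighv1-26 depended on the class of join. Among productive joins its share was 6.02% (500 ng), 6.03% (1 µg), 5.74% (2.5 µg) and 6.03% (5 µg) along the input series, 5.67% in Q5_vent and 6.11% in Q5_Q5 (mean 5.93% ± 0.180, SD, n = 6; 9932 of 167455 joins), and it ranked first in all 6. Among out-of-frame joins its share was 2.74%, 2.56%, 2.85%, 2.82%, 2.44% and 2.97% in the same order (mean 2.73% ± 0.194, SD, n = 6; 1416 of 50909). There it ranked 3 in each library but the 1 µg library, where it ranked 5. Ighv5-2 (6.59% ± 0.659) and Ighv2-2 (3.46% ± 0.298) had higher mean shares of out-of-frame joins. The highest out-of-frame share lay below the lowest productive share, and within each library the 95% intervals of both shares did not overlap. Joins in frame with a stop codon, another class that makes no full heavy chain, gave a share of 2.98% ± 0.605 (SD, n = 6; 284 of 10245), with a rank between 2 and 8. The shares of productive and out-of-frame joins are drawn for each library in the plot of share by class.

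**Figure D1:**
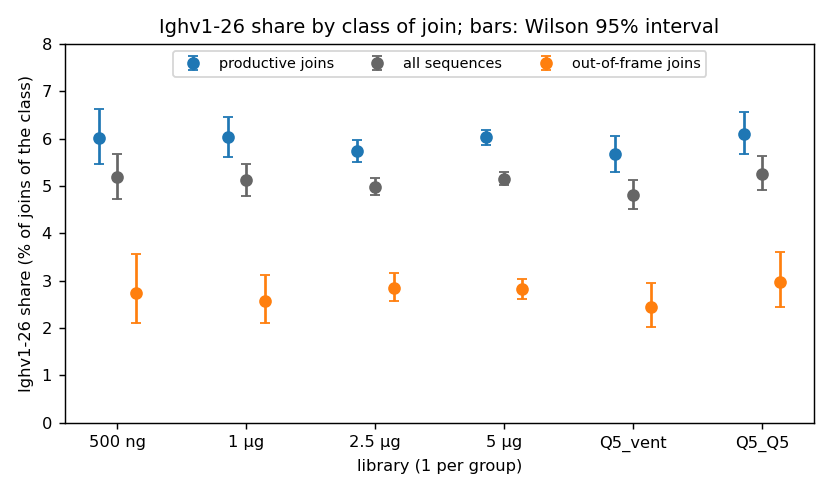
Share of Ighv1-26 (%, vertical axis) among productive joins, all sequences and out-of-frame joins in each of the 6 libraries (horizontal axis); points are shares and bars Wilson 95% intervals. Productive shares lie between 5.67% and 6.11% and out-of-frame shares between 2.44% and 2.97%, with no overlap.

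The share among productive joins divided by the share among out-of-frame joins was 2.20, 2.35, 2.01 and 2.14 along the input series, 2.32 in Q5_vent and 2.06 in Q5_Q5 (mean 2.18 ± 0.137, SD, n = 6). All 6 libraries thus lay on the same side of 1. Seen from the gene, 85.4% ± 0.662 of Ighv1-26 joins were productive, against 72.5% ± 0.485 for all other V genes. Out-of-frame joins made up 12.0% ± 0.537 of Ighv1-26 joins and 22.9% ± 0.313 of the others, and in-frame joins with a stop 2.65% ± 0.617 and 4.60% ± 0.190. The log2 odds ratio of productive over out-of-frame joins, Ighv1-26 against all other V genes, was 1.14 (SE 0.038, adjusted p = 8.7e-16 by limma over 113 V genes, higher in 6 of 6 libraries), an odds ratio of 2.20 (95% interval 2.08 to 2.33).

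A departure of this kind was the rule among V genes: 96.5% of the 113 genes tested were called in either direction, and 51.3% were called higher. Ighv1-26 stood at position 26 of 113 from the highest, above the median gene (log2 odds ratio 0.25). Of the 5 genes next in total share, Ighv3-6 had a ratio of mean productive over mean out-of-frame share of 2.12, Ighv1-64 of 1.98, Ighv8-8 of 2.18, Ighv1-18 of 1.50 and Ighv1-50 of 2.94, against 2.17 for Ighv1-26. Against the other Ighv1 genes alone, of which 79.6% were called, the log2 odds ratio of Ighv1-26 was smaller, at 0.53 (SE 0.042, adjusted p = 6.4e-11 by limma). Its total share went with the highest productive share and with an out-of-frame share exceeded on average by 2 genes, as the scatter of both shares over V genes shows. The gene was chosen by its total share, and 9932 of its 11632 sequences were productive. Its first rank among productive joins is therefore close to a restatement of that choice.

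**Figure D2:**
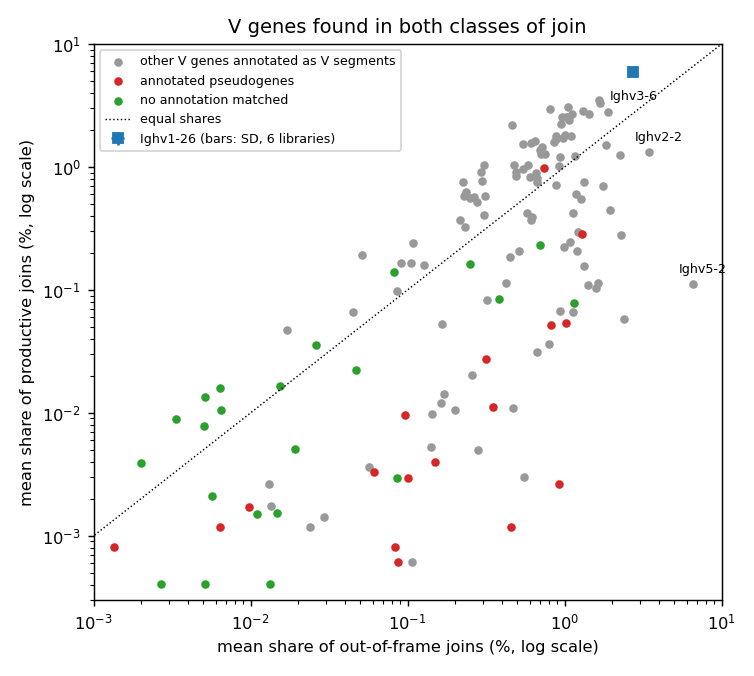
Mean share of productive joins against mean share of out-of-frame joins over 6 libraries for V genes seen in both classes (both axes in %, log scale); the dotted line marks equal shares and colours give the RefSeq annotation. Ighv1-26 (square, bars SD) lies above the line, highest in productive share at 5.93% and with 2 genes, Ighv5-2 and Ighv2-2, to its right.

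The nearest annotated V genes on chromosome 12 were rarely used. Ighv1-25, an annotated pseudogene 6.96 kb below the start of Ighv1-26, made up 0.149% ± 0.0517 of out-of-frame joins. Ighv1-24, a V segment 15.4 kb below, had 5 sequences in all, 4 of them out of frame. The pseudogenes Ighv1-27, 16.2 kb above, and Ighv1-28, 21.0 kb above, made up 0.458% ± 0.101 and 0.0614% ± 0.0375 of out-of-frame joins (SD, n = 6). The out-of-frame share of Ighv1-26, 2.73% ± 0.194, was above that of each of these 4 neighbours in every library. Distances are between annotated starts, and signal sequences beside these genes were not analysed here.

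The 2 planned pairs of libraries gave close shares of Ighv1-26. From 500 ng to 5 µg the ratio of shares was 1.00 among productive joins (95% interval 0.906 to 1.11) and 1.03 among out-of-frame joins (0.783 to 1.35). For Q5_Q5 over Q5_vent it was 1.08 (0.975 to 1.19) and 1.22 (0.928 to 1.59). All 4 intervals include 1, and with 54 out-of-frame joins at 500 ng and 98 in Q5_Q5 they leave room for changes of the size of their bounds.

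A sizeable part of the Ighv1-26 joins could not be told from a relative. The V call named Ighv1-26 alone in 8592 joins (73.9%) and several V genes in 3040 (26.1%). By library, calls naming several genes were 27.3%, 26.9%, 23.7% and 26.6% from 500 ng to 5 µg, 27.0% in Q5_vent and 28.4% in Q5_Q5, against 9.61% to 11.3% for other V genes. The groups did not overlap (log2 odds ratio 1.60, SE 0.018, adjusted p = 5.9e-09 by limma). Of the 115 V genes tested, 96.5% were called in either direction and 23 genes were called higher. Ighv1-26 stood at position 15 from the highest, and the median gene had a log2 odds ratio of -5.78. The measure depends on how close the relatives of a gene are and on name order, since a tie is counted under the first gene listed. Of the 345 sequences counted under Ighv1-34, 344 were single-gene calls that began at or before base 175. The outcome was thus largely set by the germline sequences and this counting rule, and its p-value is no evidence about the joins. Ighv1-34 alone was the second name in 2268 calls (19.5%), Ighv1-31 and Ighv1-34 together in 721 (6.20%), and Ighv1-27 with Ighv1-34 in 46 (0.395%).

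The tie followed where the alignment began. Calls naming Ighv1-26 alone had alignments that began at bases 1 to 175. Calls shared with Ighv1-34 began at bases 176 to 228, past A175G, the last difference between both genes. Calls shared with Ighv1-31 and Ighv1-34 had a median start at base 238, past the last difference to Ighv1-31. Genes of a tied call stand in name order in 100% of calls, so a tie with Ighv1-34 or Ighv1-31 is counted under Ighv1-26 unless a gene earlier in name order is listed too.

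**Figure D3:**
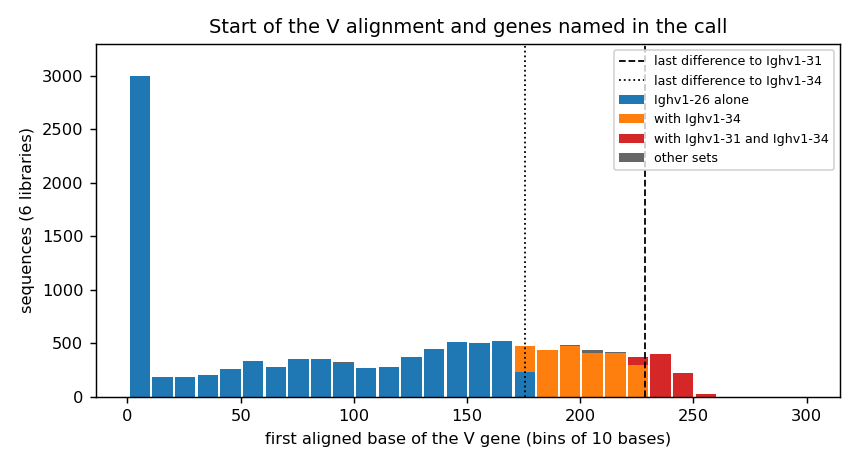
Number of Ighv1-26 sequences of all 6 libraries (vertical axis) by the first aligned base of the V gene in bins of 10 bases (horizontal axis), coloured by the genes the call names. Calls naming Ighv1-26 alone end at base 175 and calls shared with Ighv1-34 begin there; vertical lines mark the last base at which each relative differs.

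Where the alignment could separate them, the relatives were rare. Among single-gene calls with a start at or before base 175, 8592 named Ighv1-26, 344 Ighv1-34 and 280 Ighv1-31. Ighv1-26 was 96.2% of the calls to it or Ighv1-34 (Wilson 95% interval 95.7% to 96.5%), from 94.4% at 1 µg to 97.3% in Q5_Q5, and 93.2% of the calls to the 3 genes (92.7% to 93.7%). Counting single-gene calls only, Ighv1-26 made up 4.22% ± 0.113 of sequences (SD, n = 6) and still ranked first in all 6 libraries. Ighv1-50, the fifth in total share, came to 1.06% ± 0.0621 on that count. Out of frame, 1022 of the 1416 Ighv1-26 joins were single-gene calls, and no rank was computed for them. Ighv1-11 had 1247 out-of-frame joins, Ighv12-3 1193 and Ighv5-4 1177, any tied calls included. The out-of-frame rank of Ighv1-26 may therefore rest in part on its tied calls. In the other direction, 316 sequences listed Ighv1-26 after another gene and were not counted as members, 304 of them under Ighv1-19.

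The J partners of Ighv1-26 were close to those of other V genes. The Ighj3 share among its productive joins was 26.5%, 24.4%, 26.1% and 26.7% along the input series from 500 ng to 5 µg, and 23.4% in both polymerase libraries. In other V genes it was 21.1% to 23.5%, and within each library Ighv1-26 was the higher (log2 odds ratio 0.23, SE 0.032, adjusted p = 5.5e-05 by limma, 6 of 6 libraries), where 50.0% of 96 V genes were called. Ighj1 was lower, at 17.6% ± 0.791 against 19.4% ± 0.719 (log2 odds ratio -0.19, SE 0.041, adjusted p = 3.0e-05 by limma, 6 of 6; 47.9% called). Ighj4 was lower too, at 26.6% ± 2.39 against 28.9% ± 0.576 (log2 odds ratio -0.14, SE 0.035, adjusted p = 2.5e-04 by limma, 5 of 6, with Q5_Q5 higher; 54.2% called), though not by the exact sign-flip test (p = 0.094). Ighj2 did not pass, at 30.7% ± 2.93 against 29.4% ± 1.22 (log2 odds ratio 0.07, adjusted p = 0.0996 by limma; 57.3% called), and passed without the 5 µg library (log2 odds ratio 0.12, adjusted p = 0.0495 by limma). Without weights in the fit no J gene passed, with log2 odds ratios of 0.22 for Ighj3 (adjusted p = 0.067 by limma), -0.17 for Ighj1 (adjusted p = 0.11 by limma) and -0.17 for Ighj4 (adjusted p = 0.23 by limma), and 2 of 4 at an unadjusted p under 0.05.

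Against the other Ighv1 genes, the Ighj3 difference remained in productive joins (log2 odds ratio 0.19, adjusted p = 1.9e-05 by limma), and the Ighj1 and Ighj4 values, both -0.06, did not pass (adjusted p = 0.33 and 0.29 by limma). Among out-of-frame joins Ighj3 was 33.3% ± 4.25 against 29.0% ± 1.19, Ighj1 15.0% ± 2.01 against 16.1% ± 0.321, Ighj2 29.3% ± 6.59 against 32.5% ± 1.65, and Ighj4 22.4% ± 4.59 against 22.3% ± 1.16. None of these 4 passed (adjusted p = 0.66 to 0.92 by limma, and 0 of 4 at an unadjusted p under 0.05, by limma or the exact sign-flip test), where 3.92%, 3.92%, 1.96% and 0.980% of V genes did for Ighj1 to Ighj4. The log2 odds ratio of Ighj3 was 0.13 in out-of-frame joins, with a 95% interval from -0.05 to 0.30 that includes the productive value. The difference of productive and out-of-frame log2 odds ratios did not pass for any J gene (adjusted p = 0.34 to 0.68 by limma; 23.6% to 37.1% called). The J genes lie on chromosome 12 between 113428514 and 113429833.

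**Figure D4:**
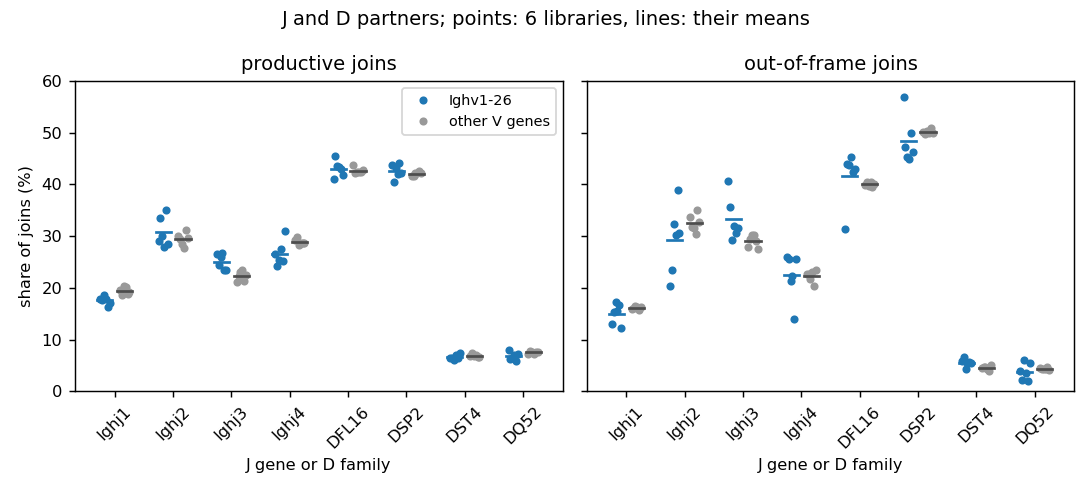
Share of joins (%) that use each J gene or D family, for Ighv1-26 (blue) and all other V genes (grey), in productive and out-of-frame joins; points are the 6 libraries and lines their means. Among productive joins Ighj3 is higher in Ighv1-26 (mean 25.1% against 22.3%), and the out-of-frame points scatter more widely.

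D genes fall into families: DFL16 (Ighd1 genes), DSP2 (Ighd2), DST4 (Ighd3) and DQ52 (Ighd4), the last lying nearest the J genes. In productive Ighv1-26 joins with a D call, DFL16 made up 43.0% ± 1.57, DSP2 42.6% ± 1.33, DST4 6.61% ± 0.476 and DQ52 6.75% ± 0.742. Other V genes had 42.7%, 42.0%, 6.86% and 7.49%, and no family passed (adjusted p = 0.10 to 0.82 by limma, with 1 of 4, DQ52, at an unadjusted p under 0.05 and 0 of 4 by the exact sign-flip test), where 29.8%, 25.5%, 12.8% and 14.9% of V genes did. Joins without a D call were 6.00% ± 0.899 of productive Ighv1-26 joins and 6.11% ± 0.205 of the others, which did not pass (adjusted p = 0.11 by limma; 21.9% called). Ighd1-1, the main DFL16 gene, was the most frequent D call, at 41.2% ± 1.68 of productive joins with a D call against 41.0% in other V genes. After it came Ighd2-4 at 12.2% and Ighd2-3 at 9.49%. Ighd4-1 was at 6.75%, Ighd2-1 at 6.41% and Ighd2-5 at 5.35% of productive joins with a D call. Every call of Ighd2-4, Ighd2-5 and Ighd2-1 named several D genes, so these shares are uncertain.

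Out of frame, DFL16 was 43.8% at 2.5 µg and 45.3% at 5 µg, against 39.6% and 40.6% in other V genes, and higher in 5 of 6 libraries. At 500 ng, with 51 joins, it was lower, at 31.4% against 39.9%. DSP2 ran the other way, at 45.3% and 44.8% in the same libraries against 50.3% and 49.9%. Both passed (log2 odds ratios 0.22 and -0.23, adjusted p = 0.029 and 0.028 by limma; 21.6% and 19.6% of V genes called). Neither passed without the 2.5 µg library (0.21 and -0.21 on the log2 scale, adjusted p = 0.085 and 0.12 by limma) or without the 5 µg library (0.16 and -0.17, adjusted p = 0.39 and 0.38 by limma). Without weights the values were 0.09 and -0.10 (adjusted p = 0.83 and 0.73 by limma; exact sign-flip p = 0.50 and 0.38), and against other Ighv1 genes 0.03 and -0.06 (adjusted p = 0.83 and 0.81 by limma). Nor did either pass in single-gene calls (0.20 and -0.18), with 1 count per clone (0.20 and -0.20) or without unclear primer tags (0.20 and -0.20). The productive minus out-of-frame difference passed for DSP2 (0.24 on the log2 scale, adjusted p = 0.023 by limma; 21.8% of genes called) and not for DFL16 (-0.17, adjusted p = 0.11 by limma; 24.1% called), DST4 or DQ52 (adjusted p = 0.69 and 0.99 by limma; 0.00% and 1.15% called). The DSP2 difference was positive in 5 of 6 libraries and -0.25 at 500 ng. It uses the out-of-frame DSP2 values above, was chosen after seeing the data and is given without alternatives.

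By a distance over 16 mean shares (4 J genes and 4 D families, productive and out-of-frame), the V genes with the most similar partners were Ighv1-53 (5.52 percentage points), Ighv1-39 (5.91) and Ighv1-80 (6.80). The median distance over 72 V genes with at least 1000 sequences was 15.0 points. The measure is a description over the means of the same 6 libraries.

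The CDR3 of productive Ighv1-26 joins was slightly shorter than that of other V genes. Its mean was 37.7, 37.6, 37.7 and 37.6 bases from 500 ng to 5 µg, 37.1 in Q5_vent and 37.7 in Q5_Q5. Other V genes had means of 37.8 to 38.0 bases, and Ighv1-26 was lower in 6 of 6 libraries. The fitted difference was -0.34 bases (SE 0.064, adjusted p = 3.1e-04 by limma; 59.4% of 96 V genes called), which is small beside the spread among single joins (SD 6.70 bases at 5 µg). Both distributions had a median of 36 bases. CDR3s of 27 bases were 8.22% of productive Ighv1-26 sequences and 6.14% of the others, and those of 24 bases or fewer 0.0201% against 0.574% at 24 bases and 0.387% at 21 bases. The length difference was 0.43 bases in size against other Ighv1 genes and 0.22 in single-gene calls, and both passed. Without weights in the fit it was -0.36 bases and did not pass (adjusted p = 0.060 by limma).

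**Figure D5:**
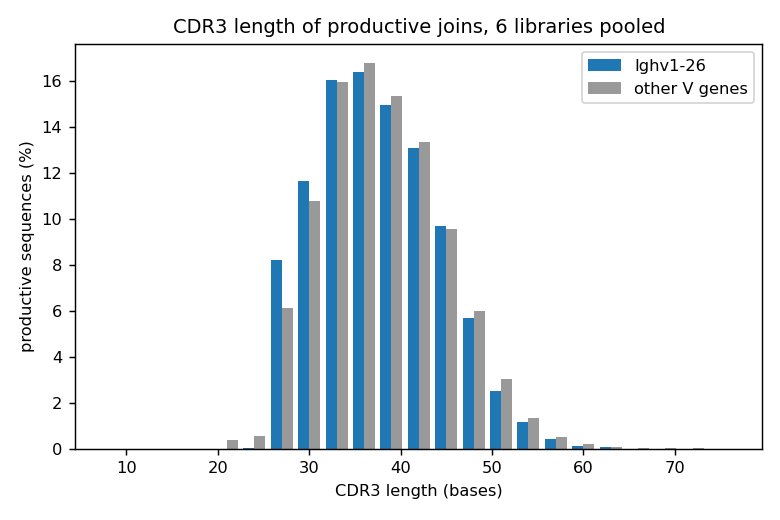
Distribution of CDR3 length (bases, horizontal axis) in productive joins of Ighv1-26 (blue, 9932 sequences) and other V genes (grey, 157523), as percent of sequences, 6 libraries pooled. Both peak at 36 bases, and Ighv1-26 has more sequences at 27 bases (8.22% against 6.14%).

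Out-of-frame joins differed more, with means of 37.4 ± 0.624 bases in Ighv1-26 and 38.6 ± 0.178 in other V genes (fitted difference -1.02, SE 0.19, adjusted p = 1.4e-04 by limma, 6 of 6 libraries; 51.0% called). The median V gene lay at -0.55 bases on this measure. Length followed the J gene in both classes. Productive CDR3s joined to Ighj1 averaged 40.8 ± 0.809 bases and to Ighj4 39.5 ± 0.328, while those joined to Ighj3 averaged 36.0 ± 0.227 and to Ighj2 35.3 ± 0.290. Within J genes, Ighv1-26 was lower than the other V genes for Ighj2 (35.7), Ighj3 (36.2) and Ighj4 (39.7) and not for Ighj1 (40.6). These values by J gene were not tested one by one. Within strata of J gene and D family, the fitted difference in productive joins was -0.28 bases (SE 0.059, adjusted p = 6.6e-06 by limma). There 59 of 96 V genes were called.

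At the V end, Ighv1-26 had lost fewer bases than other genes. Productive joins had lost 0.488 ± 0.0466 bases against 0.808 ± 0.0154 (difference -0.34, adjusted p = 4.1e-34 by limma, 6 of 6; 93.8% of genes called), and out-of-frame joins 0.952 ± 0.215 against 1.50 ± 0.0267 (difference -0.57, adjusted p = 4.6e-13 by limma, 6 of 6; 78.4% called). The median V gene lay at -0.17 and -0.37 bases in the same order. The full 3′ end, reading tgtgcaaga as in the sequences above, was kept in 77.1% of productive and 69.6% of out-of-frame joins. Between V and D, 4.49 ± 0.154 bases were inserted in productive joins against 4.28 ± 0.0192 (difference 0.22, adjusted p = 1.6e-11 by limma, 5 of 6 libraries; 80.9% called). Out-of-frame joins had 4.66 ± 0.151 against 4.39 ± 0.0669 (difference 0.34, adjusted p = 0.0027 by limma, 5 of 6; 50.0% called). Between D and J the difference did not pass in productive joins (0.05 bases, adjusted p = 0.13 by limma; 36.2% called) or out of frame (-0.14, adjusted p = 0.34 by limma; 0.980% called). No inserted base at either junction was found in 1.07% ± 0.444 of productive joins and 1.47% ± 0.0224 of the others, which did not pass (adjusted p = 0.066 by limma; 7.45% called). An inserted base that matches the V gene is read as V here, so trimming and insertion are not fully separable.

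Most Ighv1-26 CDR3s were seen once. Clones were taken as sequences with the same V and J genes and the same CDR3 bases, and numbered 11390, of which 190 were seen more than once and 100 in 2 or more libraries. Of these 100, 84 were in 2 libraries, 14 in 3 and 2 in 4, and none in 5 or 6. No clone carried the same 12-base molecular identifier in 2 libraries. The 6 clones with 5 or more sequences among the 16 found in at least 3 libraries are shown as the most often seen examples. Each is the CDR3 from the codon after the V gene's last cysteine, and capitals mark the bases aligned to D.
Ighd3-2 to Ighj4 join: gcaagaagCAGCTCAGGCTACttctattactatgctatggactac
Ighd2-2 or Ighd2-7 to Ighj4 join: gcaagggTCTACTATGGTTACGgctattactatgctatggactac
Ighd1-1 to Ighj1 join: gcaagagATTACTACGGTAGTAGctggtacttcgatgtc
Ighd2-4 or Ighd2-9 to Ighj4 join: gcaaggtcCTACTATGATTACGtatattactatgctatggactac
first Ighd4-1 to Ighj2 join: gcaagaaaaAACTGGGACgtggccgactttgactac
second Ighd4-1 to Ighj2 join: gcaagaAACTGGGactactttgactac
The first pair was found in 4 libraries with 5 sequences each. The third was the most frequent, with 9 sequences in 3 libraries, 1 at 500 ng, 3 at 2.5 µg and 5 at 5 µg. The fourth had 7 sequences, the fifth 6 and the sixth 5, in 3 libraries each, and the sixth holds no inserted base. All 6 were productive.

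Of the 16 clones in at least 3 libraries, 13 were productive, 2 out of frame and 1 in frame with a stop, and 7 used Ighd1-1. Of these CDR3s, 5 also occurred under other V genes, in up to 27 sequences. Among the 100 clones in 2 or more libraries, 85.0% were productive (95% interval 76.7% to 90.7%) and 44.0% used Ighd1-1 (34.7% to 53.8%), against 85.4% and 39.4% of clones in 1 library. Recurrent clones lacked any inserted base in 7.22% of cases with a D call (7 of 97, 3.54% to 14.2%), against 0.833% of clones in 1 library (0.678% to 1.02%). They held 6.21 inserted bases on average (normal 95% interval 5.31 to 7.10), against 7.85 (7.77 to 7.92). Ighj1 was used by 28.0% (20.1% to 37.5%) and 17.3% (16.6% to 18.0%). Clones of a library that were also in another made up 2.3% ± 0.549 for Ighv1-26 and 2.23% ± 0.591 for other V genes, a log2 odds ratio of 0.14 with a 95% interval that includes 0. Against other Ighv1 genes the value was 0.52, with a 95% interval from 0.345 to 0.691, and higher in 6 of 6 libraries. Among 115 V genes Ighv1-26 stood at position 27 from the highest, and the median gene had a log2 odds ratio of -0.59. Sharing a V gene is part of the definition of a clone, so a gene with more sequences has more chances of a repeat. Ighv1-26 was chosen for having the most sequences, and genes were not matched for their number. A clone found in 2 libraries counts in both, so the values of the libraries are not independent, which the intervals do not allow for. Both comparisons are therefore given as a description with no test.

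Mismatches to the germline V gene were about as frequent in Ighv1-26 as in the median V gene, and rarer than in the other V genes pooled. The share of sequences with 1 or more was 8.87%, 8.02%, 6.74% and 6.46% along the input series from 500 ng to 5 µg, 5.87% in Q5_vent and 2.15% in Q5_Q5, and that of other V genes 9.25%, 8.37%, 8.62%, 8.14%, 7.85% and 4.63% in the same order. Ighv1-26 was lower in 6 of 6 libraries (log2 odds ratio -0.39, SE 0.085, adjusted p = 0.0044 by limma; 35.7% of 115 genes called). The median V gene had the same value to this precision, -0.39, and Ighv1-26 stood at position 56 of 115 from the highest. This comparison pooled all classes of join and was not made within a class. In Ighv1-26, mismatches were found in 5.35% of productive joins, 10.5% of out-of-frame joins and 22.5% of in-frame joins with a stop. Productive joins were 85.4% of Ighv1-26 joins and 72.5% of the others. The log2 odds ratio was -0.13 (adjusted p = 0.28 by limma) against V genes annotated as V segments, -0.27 (adjusted p = 0.052 by limma) in single-gene calls, and -0.41 (adjusted p = 0.13 by limma) without weights, and none of these passed. The V segment set leaves out annotated pseudogenes and also V gene names not found in RefSeq. Q5_Q5 had the lowest share, both in Ighv1-26 (95% interval 1.35% to 3.41%, against 4.54% to 7.56% in Q5_vent) and in other V genes. For 1 or 2 mismatches the Ighv1-26 shares were 1.01% (0.513% to 1.98%) and 4.38% (3.24% to 5.88%). The pair holds 1 library each, and polymerase and library cannot be told apart.

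Heavily mismatched Ighv1-26 sequences sat almost wholly outside the productive class, a split not made for other V genes. Of 107 Ighv1-26 sequences with 5 or more mismatches, 1 was productive, 74 were out of frame and 32 were in frame with a stop. Of these, 27 carried 1 shared pattern, seen in 27 separate clones and 5 libraries (13 sequences in the 5 µg library, 5 in the 2.5 µg library, 3 in the 1 µg library, 5 in Q5_vent and 1 in Q5_Q5). None of the 27 was productive, 20 were out of frame and 7 had a stop. A sequence was taken to carry the pattern if its aligned V stretch, less the last 10 bases, was found within it. A separate count of the pattern gave 23 sequences, of which 17 were out of frame, 6 had a stop and none was productive. The pattern is printed here as found over the whole gene in 16 identical sequences, with the substituted bases in capitals.
recurring mismatch pattern: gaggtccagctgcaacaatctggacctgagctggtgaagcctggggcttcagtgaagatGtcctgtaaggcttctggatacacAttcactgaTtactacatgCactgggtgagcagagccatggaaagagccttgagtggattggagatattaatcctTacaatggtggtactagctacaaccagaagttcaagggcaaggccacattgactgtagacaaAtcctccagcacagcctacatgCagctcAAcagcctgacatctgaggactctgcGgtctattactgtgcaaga
Relative to Ighv1-26 it has the substitutions A60G, G84A, C93T, A103C, A160T, G222A, G244C, C250A, G251A and A276G and lacks the base at position 113, which leaves 293 bases. Of its 10 substitutions, 3 are also differences of Ighv1-34 and 3 of Ighv1-31. No gene name was given to it, and its origin was not tested.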

How the data were processed

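The 6 VDJ-seq libraries were processed by the authors with Bowtie2 2.3.2, Trim Galore 0.4.4 and the mm10 build, per the submitters' processing notes. The V, D and J caller was not given in the sources used here. Each deposited row, per the file headers, is a deduplicated sequence with V, D and J calls, CDR3 and frame flags, V identity as a fraction from 0 to 1, and segment lengths in bases. Library depth was 8704 to 112320 sequences, so that 0 counts allow up to 0.665% of Ighv1-26 joins at 500 ng and 0.0518% at 5 µg (3 counts). Identifiers were collapsed by the authors. Wilson intervals and those of share ratios and clone properties cover counting error only. Those of log2 odds ratios and odds ratios come from the limma fit over the 6 libraries.

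Sequences were assigned to the first V gene of the call. For each V gene with at least 100 sequences of a class, the log2 odds ratio against all other V genes (1 added sequence, split by the rate of the other genes) or the difference of means was computed in each library. limma 3.58.1 (R 4.3.3) fitted an intercept over the 6 libraries with weights of 1 over the counting variance, with Benjamini-Hochberg adjustment over V genes and a threshold of 0.05. Its empirical Bayes step moderated the variance of each gene over all V genes tested. Degrees of freedom therefore exceeded those of 6 libraries alone, at 510 for the out-of-frame DFL16 share. They were 480 for the productive Ighj1 and Ighj4 shares and 470 for bases inserted at either junction of productive joins. For the productive minus out-of-frame differences of DFL16 and DSP2 they were 435. In these fits the variance was in effect that of all V genes pooled, and the library spread of Ighv1-26 itself counted little. The exact sign-flip permutation used only the 6 values of Ighv1-26. V bases lost were counted from the highest aligned 3′ end seen in at least 1% of a gene's sequences. The fit was tested on simulated data. D families used the first D call, and 40.9% of D calls named several D genes. Alternatives were leaving out each library, the input series alone, no weights, an exact sign-flip permutation and other comparators. Further ones were other minimum counts, single-gene calls, clones in place of sequences and removal of unclear primer tags. For productive CDR3 length, a fit within strata of J gene and D family was also run. Chosen after seeing the data were differences of shares, V alignments of at least 150 bases, and productive minus out-of-frame partner values, and also the recurring mismatch pattern and the clones printed in full. Named genes were the 5 next in share, those most often sharing a call, the 3 nearest in partner profile, the 2 neighbours on each side, each J gene and D family, D genes with at least 5% of joins, and clones in at least 3 libraries. The gene and these lists were chosen with earlier results of these data known. Coordinates are from RefSeq (GRCm38.p6), where 135 of 176 V gene names were found. Tables and figures were made in Python 3.11.15 with matplotlib 3.10.9, SciPy 1.17.1, NumPy 2.4.6 and pandas 2.3.3.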

Additional observations from a re-analysis of the deposited data

Results flagged for a closer look

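Signals outside the main comparisons were found in 3 places. A shared pattern of mismatches was carried by 27 sequences called Ighv1-26, none of them productive. Ighv1-26 was listed after another V gene in 316 sequences, 289 of them naming Ighv1-19, Ighv1-25 and Ighv1-26. Of 1289 Ighv1-26 sequences with a primer tag marked unclear, 231 (17.9%) had a tag that names another J gene than the J call, against 1 of 10343 with a clear tag. This count was not made for other V genes. By library, unclear tags were on 6.57% to 13.7% of Ighv1-26 sequences and on 8.21% to 12.9% of all sequences. Groups of 1 library leave no within-group check for a library that stands apart.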

How the results depend on the processing

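The productive odds and the share of calls naming several V genes kept their direction and passed under all alternatives run. Without 1 library at a time they ranged from 1.13 to 1.17 and from 1.57 to 1.62 on the log2 scale, CDR3 length from -0.36 to -0.30 bases, mismatches from -0.42 to -0.34, and recurrent clones from 0.07 to 0.18. Calls of D families, 2 of 8, fell to 0 without the 2.5 µg library, without the 5 µg library, without weights, by the exact sign-flip permutation, against other Ighv1 genes, without unclear primer tags, in single-gene calls and with 1 count per clone, and otherwise ranged up to 3. Calls of J shares, 3 of 8, fell to 0 without weights and to 1 against other Ighv1 genes, and ranged from 3 to 4 without 1 library. Without weights the productive CDR3 difference was -0.36 bases (adjusted p = 0.060 by limma). Mismatches gave -0.41 without weights (adjusted p = 0.13 by limma), -0.13 against genes annotated as V segments (adjusted p = 0.28 by limma) and -0.27 in single-gene calls (adjusted p = 0.052 by limma). Recurrent clones gave 0.52 against other Ighv1 genes. The cause of these changes was not tested, and no value changed sign past its threshold. The exact sign-flip test over 6 libraries cannot go below 0.03125. Depth limits the out-of-frame class most, with 54 joins at 500 ng. No paired analysis was possible because each group holds 1 library.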
